A study of Solanum lycopersicum with 6 samples.

Results

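Light perception in plants rests on photoreceptor proteins, and 10 tomato genes that encode such receptors or a transcription factor acting below them are described here. They were chosen by gene identifier and comprise 5 phytochromes (PHYA, PHYB1, PHYB2, PHYE and PHYF), 3 cryptochromes (CRY1a, CRY1b and CRY2), the UV-B receptor UVR8 and HY5. Of the 10 genes, 9 were named in the deposited tables, with 57 of the 132092 differentially methylated regions and among 27473 genes named in all. CRY2 (Solyc09g090100) had no region assigned to it in any of the 3 tables. It was not checked by position, so losses near CRY2 but listed under a neighbouring gene would not be counted here. Embryos of the dwarf cultivar Micro-Tom were compared at 21 days after flowering between 3 bisulfite libraries of an SlNRPD1 knockout, called nrpd1, and 3 libraries of wild type. Neither the number of plants behind the libraries nor the number of knockout lines is stated in the labels.

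NRPD1 is the catalytic subunit of the plant-specific RNA polymerase IV, which makes the precursors of the small RNAs that guide methylation to DNA. Phytochromes sense red and far-red light and cryptochromes sense blue light. In Arabidopsis, active photoreceptors restrain the COP1 ubiquitin ligase, so that the bZIP factor HY5 accumulates and binds the promoters of light-responsive genes. Methylation of plant DNA is recorded in the CG, CHG and CHH contexts, where H stands for A, C or T. Methylation in the CHH context is not copied from strand to strand and depends most on continued targeting.

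Each region was listed by the authors because it differed between the genotypes, and it carried 1 mean level for nrpd1 and 1 for wild type. Values of single libraries and read depth are not given in the tables, so no level below has an error and no difference was tested. No listed region differed by less than 10 percentage points, and the rest of the genome was not analysed here. The gene names come from the choice of identifiers, since the tables hold identifiers alone. In the RefSeq gene table for another tomato assembly, 9 of the 10 names occurred as symbols, each on the chromosome whose number stands in its identifier, and UVR8 did not occur as a symbol. The tissue label cannot be checked against marker genes in methylation data.

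Most regions of these genes were less methylated in nrpd1, and the exceptions lay away from the genes. In the CHH context 34 of 36 regions were lower in nrpd1, beside 95.8% of all listed CHH regions. In CHG 10 of 15 were lower, beside 88.0%, and in CG 5 of 6, beside 67.7%. All 5 CHG gains and the CG gain belonged to PHYA. Without PHYA, 28 of 29 CHH, 10 of 10 CHG and 2 of 2 CG regions were lower. The 8 gains and 32 of the 49 losses were in distal intergenic sequence or in a downstream flank rather than in a promoter or gene body. The remaining 17 losses, 12 in CHH and 5 in CHG, lay in promoters (within 2 kb of the start in the authors' annotation), except for 1 CHH loss that the authors annotated as exonic.

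A CHH loss in the promoter or body was listed for 7 of the 9 genes named in the tables, namely PHYA, PHYB1, PHYB2, PHYE, CRY1a, CRY1b and HY5, beside 73.2% of all genes named in the tables. In each of the 7 a CHH loss was annotated as promoter within 1 kb of the start. Such a loss was listed for 57.8% of the named genes. The class includes regions that cross the start, as in CRY1a and CRY1b. CHG losses in promoters or bodies belonged to PHYB2, PHYF, CRY1a and CRY1b, that is 4 of the 9 beside 43.7%. No member had a CG loss (13.4% of named genes), a CG gain (4.82%), a CHG gain (3.14%) or a CHH gain (0.739%) in its promoter or body. With only 9 genes and no test made, these shares do not set the light receptors apart from all named genes.

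**Figure D1:**
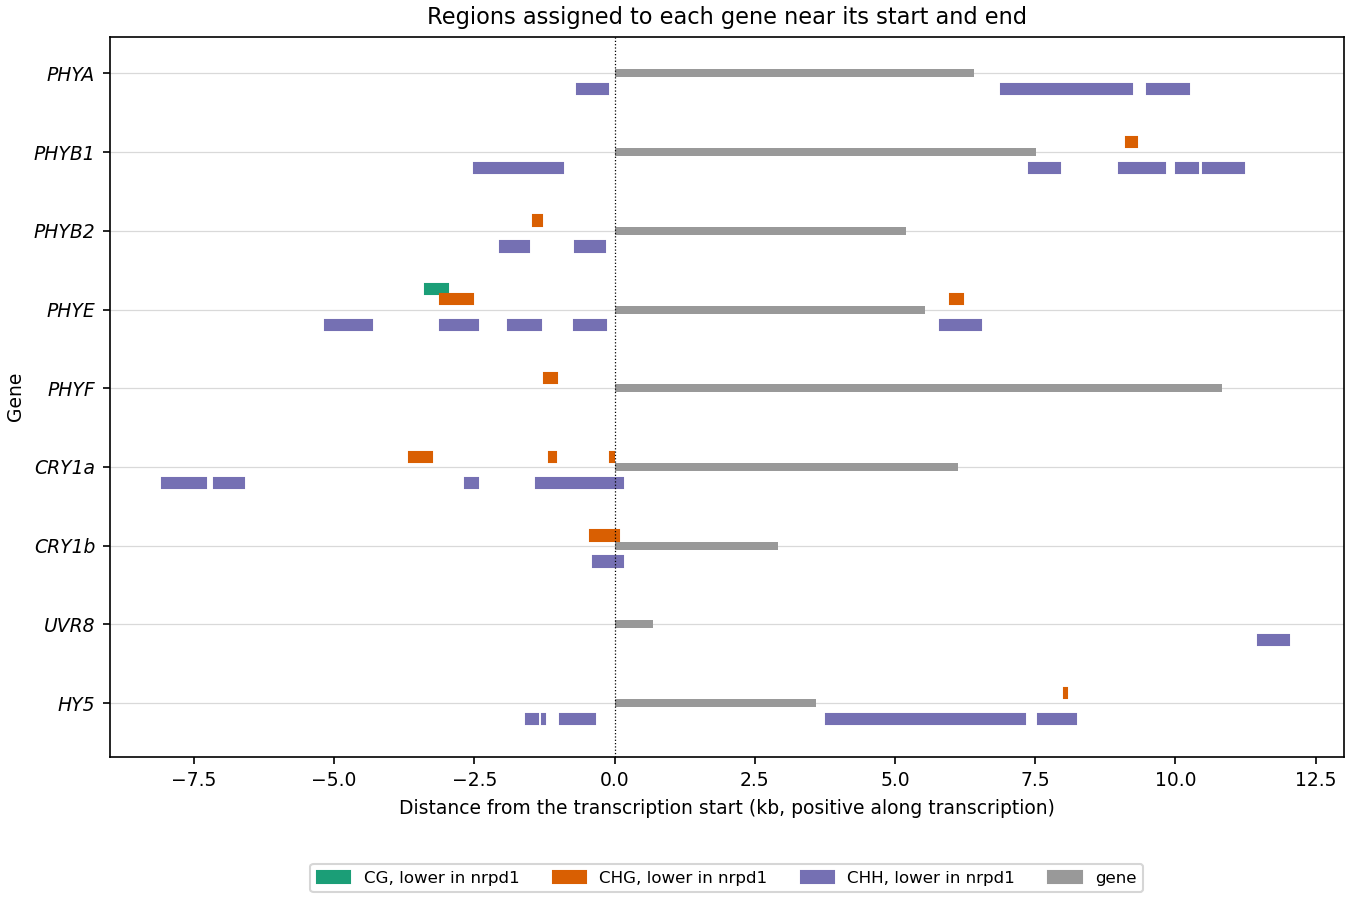
Positions of the assigned regions along each of the 9 named genes, with distance from the transcription start in kb on the horizontal axis (positive along transcription) and 1 gene per row. Grey bars are genes and coloured bars are CG, CHG and CHH regions lower in nrpd1. CHH losses lie before or across the start in 7 of the genes, while the gene bodies are nearly free of them. Regions beyond the axis, which include all 8 gains, are not drawn.

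Across the 12 CHH losses in promoters and bodies, nrpd1 levels ran from 5.74% to 27.8% with a median of 10.03%, and wild-type levels from 17.9% to 39.6% with a median of 27.7%. The median loss was -16.0 points (nrpd1 minus wild type), beside -16.6 points in all 30027 listed CHH losses of promoters and bodies. The share of the wild-type level left in nrpd1 had a median of 34.5%, beside 29.6% in all such losses.

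PHYA, the receptor for far-red light, had a promoter CHH loss in which a comparatively large part of the methylation was retained. This region lay on chromosome 10 at 26380128 to 26380679 (SL4.0), 113 bp before the start of Solyc10g044670, and covered 138 CHH cytosines. Levels in the rest of the promoter are not listed. The mean of the region was 15.7% in nrpd1 and 31.6% in wild type, so that 49.6% of the wild-type level was left. This share was at percentile 93.4 of the CHH losses in promoters and bodies. Beyond the end of the gene, 479 bp away, a 2328 bp CHH loss had 9.84% in nrpd1 and 32.3% in wild type, and its width was at percentile 97.1 of distal CHH losses.

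PHYB1 and PHYB2 are a pair of closely related red-light receptors, and both had CHH losses on either side of the gene. Those at the end of PHYB2 were listed under a neighbouring gene. In PHYB1 (Solyc01g059870, chromosome 1) a 1592 bp region that began 921 bp before the start had 11.8% in nrpd1 and 28.7% in wild type. A second region at the other end of PHYB1, from 62126437 to 62126996, had 5.74% in nrpd1 and 21.8% in wild type. The authors' annotation calls it exon 1 of 4, but PHYB1 is on the minus strand and the region spans the end of the gene, with 128 bp inside it and 432 bp beyond. In PHYB2 (Solyc05g053410, chromosome 5) a 534 bp region 167 bp before the start had 5.75% in nrpd1 and 20.1% in wild type. A further PHYB2 region of 530 bp, 1520 bp before the start, had 8.68% in nrpd1 and 26.1% in wild type. The share left was 41.2% before the start of PHYB1 and 26.3% at its end, and 28.6% and 33.2% in the 2 PHYB2 regions before the start. In the CHH losses across and beyond the end of PHYB2, the share left was 22.3% and 27.5%. These are single regions in unlike positions, and no difference between the paralogues was tested.

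PHYB2 also had the CHG loss with the least methylation left among these genes. At 62899562 to 62899726 on chromosome 5, over 8 CHG cytosines, the mean was 9.05% in nrpd1 and 39.1% in wild type. The 23.1% left was at percentile 4.68 of the 16075 CHG losses in promoters and bodies. This region shared no base with a CHH loss and was 59 bp short of the nearer PHYB2 one.

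PHYE, another phytochrome, had the deepest CHH loss in points of any member. In the 573 bp region 157 bp before its start (chromosome 2, 38757493 to 38758065) the mean was 8.70% in nrpd1 and 34.1% in wild type, a difference of -25.4 points at percentile 89.0. The next PHYE region upstream, 1313 bp from the start, had 12.2% in nrpd1 and 26.8% in wild type. About 3 kb upstream, CG, CHG and CHH losses met in the same sequence. The CG level there was 25.9% in nrpd1 and 69.1% in wild type, the CHG level 55.3% in nrpd1 and 82.3% in wild type, and the CHH level 10.8% in nrpd1 and 28.7% in wild type. The CG region shared 147 bp with the CHG region and 138 bp with the CHH region, and it was the 1 place among these genes where all 3 contexts overlapped.

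PHYF, the remaining phytochrome, had a single assigned region, as did 17.6% of named genes. It was a CHG loss over 6 cytosines, 1031 bp before the start of Solyc07g045480 on chromosome 7 (58494319 to 58494553), with 27.9% in nrpd1 and 55.5% in wild type. No CHH region was assigned to PHYF. Of the 12017 genes with a CHG loss in the promoter or body, 5.28% likewise had no CHH region. A CHH loss did begin 787 bp beyond the end of PHYF, listed under a neighbouring gene, with 4.52% in nrpd1 and 18.3% in wild type.

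**Figure D2:**
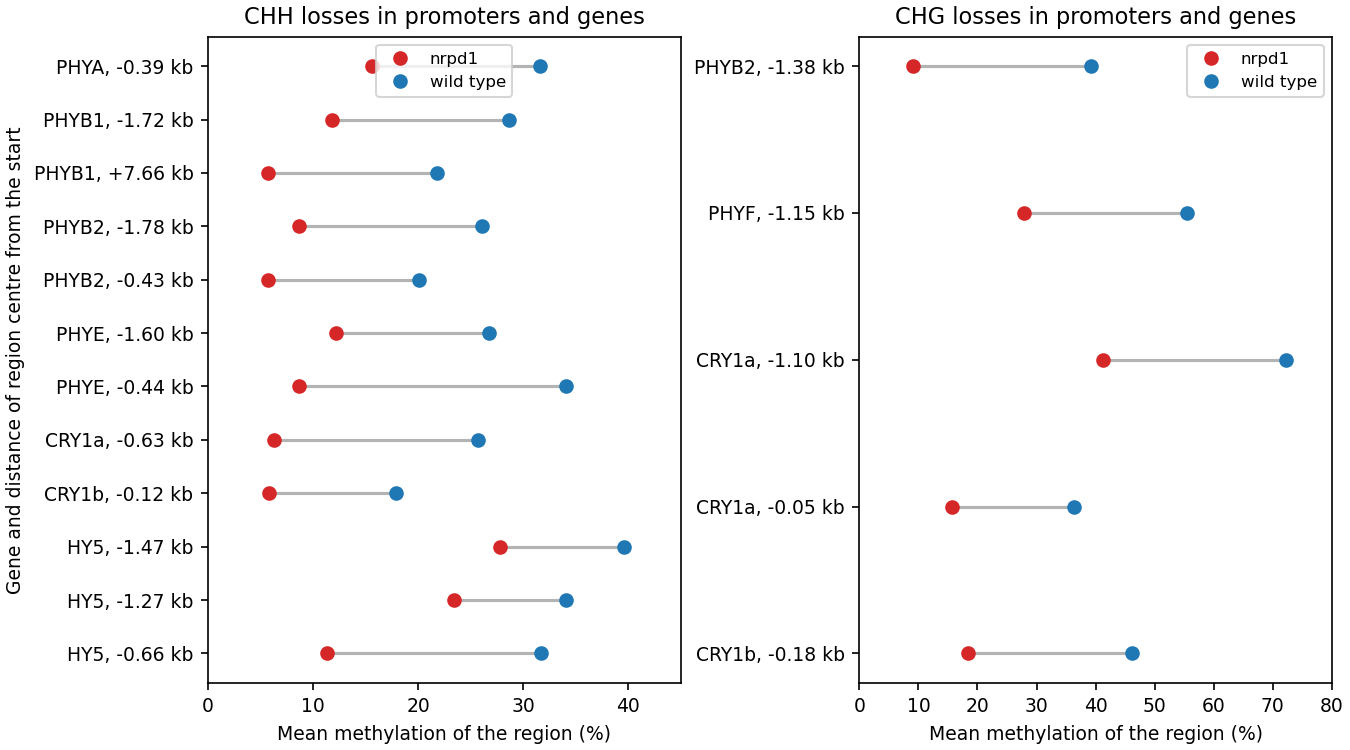
Mean methylation (%) of the 17 losses in promoters and gene bodies, with CHH regions on the left and CHG regions on the right. Each row is 1 region named by its gene and the distance of its centre from the start, red points are nrpd1 and blue points wild type. CHH levels in nrpd1 end at 27.8%, in HY5, and the other genes stay at or below 15.7%.

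CRY1a and CRY1b, 2 blue-light receptors, had CHH losses that crossed their transcription starts. In CRY1a (Solyc04g074180, chromosome 4) the loss ran over 1543 bp and 362 CHH cytosines, from 58137598 to 58139140, with 6.28% in nrpd1 and 25.7% in wild type. In CRY1b (Solyc12g057040, chromosome 12) it ran over 535 bp, from 62729062 to 62729596, with 5.85% in nrpd1 and 17.9% in wild type. Both losses overlapped CHG losses as well. The CRY1b start had a 509 bp CHG loss with 18.3% in nrpd1 and 46.1% in wild type, which shared 468 bp with the CHH loss. CRY1a had 2 short CHG losses inside its CHH loss. The one 16 bp before the start had 15.7% in nrpd1 and 36.4% in wild type, and the one 1036 bp before it had 41.2% in nrpd1 and 72.3% in wild type, the first over 6 and the second over 5 cytosines. The CHH loss of CRY1a was larger in points than that of CRY1b, -19.4 against -12.0, with no error to set the difference against.

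UVR8, the receptor for UV-B, differed in layout from the others in that no region assigned to it lay within 10 kb. Its 7 regions, 6 in CHH and 1 in CG, began at 10776 bp from the gene and were all on the downstream side. A gene with no listed region in promoter or body was not rare, as this held for 18.1% of named genes. Of the CHH regions, 2 neighbours about 18 kb away kept much of their methylation, with 23.0% in nrpd1 and 34.1% in wild type in one and 21.3% in nrpd1 and 33.7% in wild type in the other. Their shares left, 67.4% and 63.3%, were at percentiles 99.2 and 97.7 of distal CHH losses. The gene model of Solyc05g018630 spans 689 bp, the shortest of the 9, and whether it covers the whole gene was not tested.

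HY5, the transcription factor that acts below the photoreceptors, had a loss of about 20 points close to its start and 2 regions further upstream that kept most of their methylation. The 634 bp region 347 bp before the start of Solyc08g061130 had 11.4% in nrpd1 and 31.7% in wild type. The region 1241 bp before the start had 23.4% in nrpd1 and 34.1% in wild type, but it is 52 bp wide and holds 8 CHH cytosines. At 1360 bp before the start, a region with 65 CHH cytosines had 27.8% in nrpd1 and 39.6% in wild type, the highest wild-type CHH level among the 36 regions. The shares left of 68.7% and 70.2% were both at percentile 99.8 of CHH losses in promoters and bodies.

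**Figure D3:**
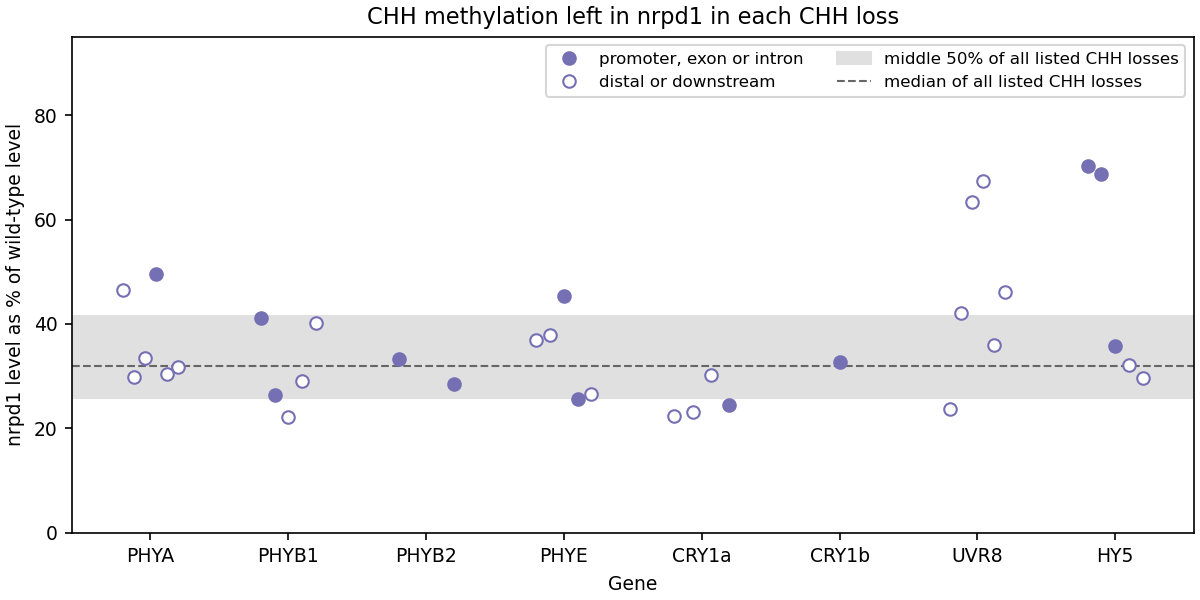
CHH methylation in nrpd1 as a percentage of the wild-type level, for each of the 34 CHH losses by gene; filled points are in promoters or gene bodies, open points are distal or downstream. The grey band runs from 25.8% to 41.6%, the middle 50% of all listed CHH losses, and 2 points each of UVR8 and HY5 lie above 60%.

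Of the 34 CHH losses, 19 fell inside the middle 50% of all listed CHH losses by share left, 6 below it and 9 above it. Shares above 60% occurred in 4 of the 34, which were the 2 UVR8 and 2 HY5 regions, beside 3.14% of all CHH losses. The median over the 34 was 33.0%, beside 32.0% over all CHH losses.

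The transcribed parts of these genes were nearly free of CHH losses, whereas the flanks were not. Counting every listed CHH loss by position, whichever gene it was assigned to, losses covered 499 bp of the 48797 bp in the 9 genes. As a mean over genes this was 1.18% of the gene length, beside 4.50% over the 27378 named genes on the 12 chromosomes, of which 27.6% had any such base. The median was 0% both over the 9 genes and over the named genes, so the lower mean does not set these gene bodies apart. PHYB1, PHYB2, CRY1a and CRY1b had between 82 and 145 bp each, at the very start or end of the gene. That is 4 of the 9 genes, beside the 27.6% of named genes, and the other 5 had none. In the 2 kb before the start, CHH losses covered 39.0% on average, beside 32.8% over named genes, with medians of 45.7% and 29.5%. In the 2 kb after the gene end they covered 39.1% on average, beside 21.3%, with medians of 36.2% and 6.92%, and 7 of the 9 genes had some coverage, beside 51.7% of named genes.

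HY5 and PHYA accounted for the highest downstream values. A CHH loss of 3534 bp and 720 cytosines began 191 bp beyond the end of HY5 (chromosome 8, 44858121 to 44861654), with 10.2% in nrpd1 and 31.7% in wild type. It filled 90.5% of the 2 kb after HY5, at percentile 98.5 of named genes, and its width was at percentile 99.4 of distal CHH losses. After PHYA, CHH losses filled 76.1% of the 2 kb (percentile 95.4). CRY1a and UVR8 had no CHH loss in the 2 kb after the gene. Genes enter the named set only if a region was assigned to them, so these background means are not those of all tomato genes.

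**Figure D4:**
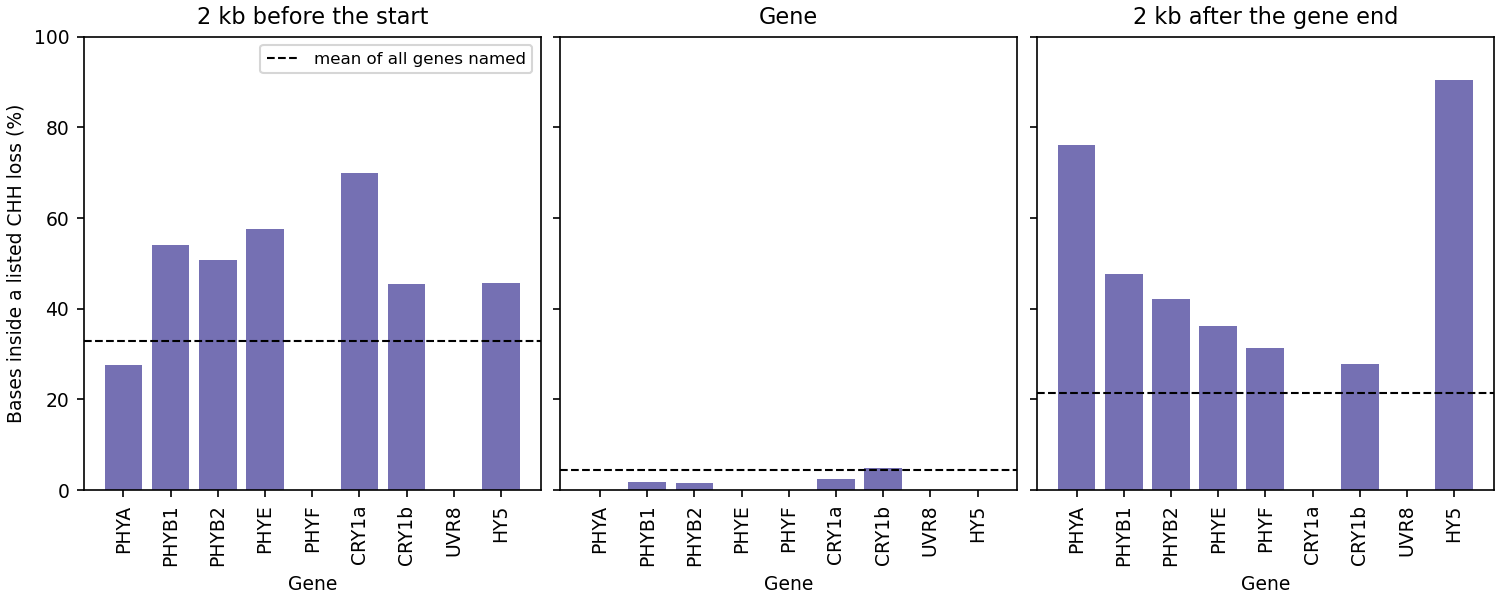
Share of bases (%) inside a listed CHH loss in the 2 kb before the start, in the gene and in the 2 kb after the gene end, with 1 bar per gene and a dashed line at the mean of all named genes. Gene bodies reach at most 4.93%, in CRY1b, while HY5 reaches 90.5% after its end.

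In 3 of the 9 named genes some nearby losses were listed under a neighbour, and CRY2 was not checked. Of 8 such regions within 2 kb, all lower in nrpd1, 3 were at PHYB2, 1 at PHYF and 4 at CRY1b. The widest, a CHH loss of 3948 bp, ended at -1482 bp relative to the start of CRY1b and had 12.8% in nrpd1 and 37.9% in wild type. A region crossing the end of PHYB2 (chromosome 5, 62892686 to 62893149) had 3.51% in nrpd1 and 15.8% in wild type.

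The gains were concentrated far upstream of PHYA, in sequence assigned to it as the named gene but 35.7 to 59.5 kb away from its start. Of 13 regions there, 7 were higher in nrpd1 and 6 lower. At the far end a CHG gain with 80.7% in nrpd1 and 46.3% in wild type shared 543 bp with a CHH gain of 18.0% in nrpd1 and 7.85% in wild type. About 36 kb upstream a CG gain with 86.9% in nrpd1 and 45.4% in wild type lay wholly within a CHG gain of 59.8% in nrpd1 and 35.1% in wild type. Between 40 and 44 kb upstream, CHH and CG were lower in nrpd1, including a CG region with 19.2% in nrpd1 and 70.2% in wild type.

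At 38 kb upstream of PHYA the CG and CHG contexts moved in opposite directions over the same bases. A CG loss on chromosome 10 (26342389 to 26342554) had 54.9% in nrpd1 and 87.2% in wild type over 6 CG cytosines. It shared 124 bp with a CHG gain (26342363 to 26342512) of 15.3% in nrpd1 and 4.20% in wild type over 13 CHG cytosines. Of the 8805 CG losses and 5074 CHG gains in the tables this was the 1 pair that overlapped, and it was picked out after its values were seen. The CHG change of 11.1 points is close to the smallest difference listed, and both regions are short.

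**Figure D5:**
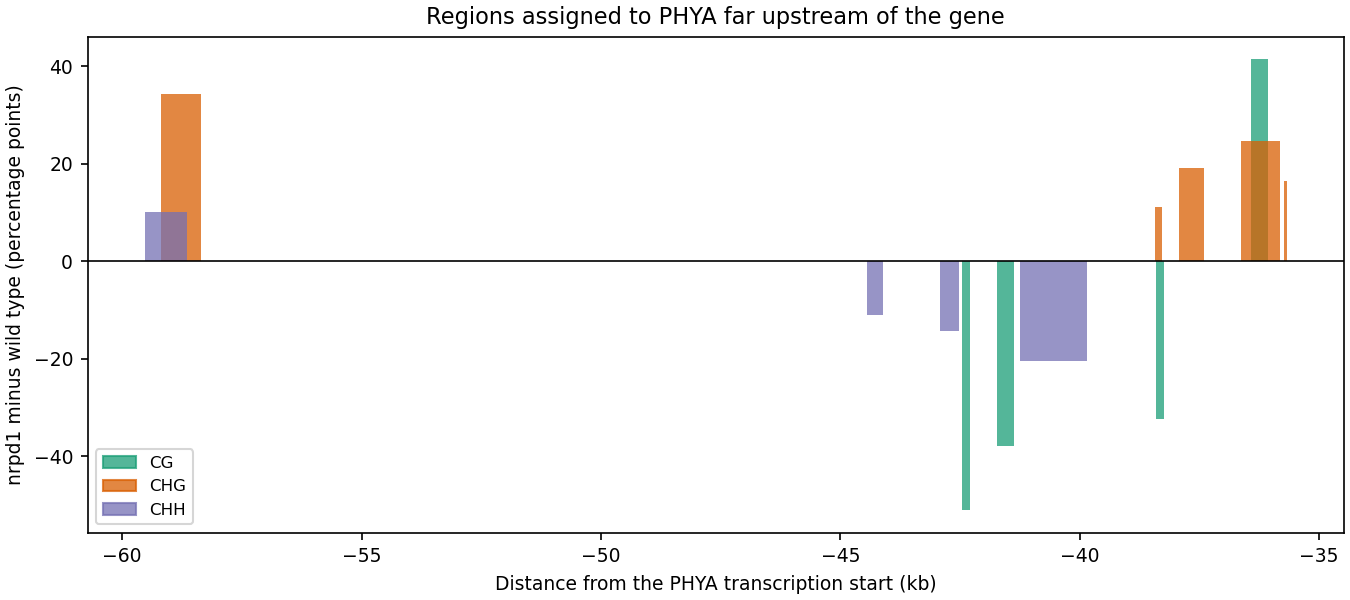
Difference in methylation (nrpd1 minus wild type, percentage points) of the 13 regions assigned to PHYA far upstream, plotted against distance from its start in kb; bar width is region width and colour is context. CHG gains and a CG gain of 41.5 points stand next to CG and CHH losses within 10 kb.

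Overlap between contexts was counted over all assigned regions. Of the 34 CHH losses, 6 shared at least 1 bp with a CHG loss, beside 35.4% of all CHH losses, and 1 with a CG loss, beside 5.32%. Among 10 CHG losses, 7 shared bases with a CHH loss, beside 75.7%.

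The genes differed in their surroundings along the chromosomes. PHYA, PHYB1, UVR8 and HY5 had between 11 and 20 other named genes within 500 kb on either side, at percentiles 7.92 to 15.4 of named genes. PHYB2, PHYE, PHYF, CRY1a and CRY1b had between 78 and 110, beside a median of 88. All 23 regions more than 10 kb from a start belonged to PHYA, PHYB1 and UVR8, of the first group. The 3 of PHYB1 lay beyond the end of the gene and were 2500 to 7883 bp from it. The number of assigned regions per named gene ranged from 1 for PHYF to 16 for PHYA, and the part of gene spacing in it was not tested.

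A further 17 gene identifiers were examined as a list, compiled to cover light signalling components below or beside these receptors. It was meant to hold COP1 and its partners, phytochrome-interacting factors, phototropins and GLK factors. Neither the tables nor the RefSeq table pairs these identifiers with names, so their identities were not checked and counts alone are given. All 17 were named in the tables. A CHH loss in the promoter or body was listed for 15, beside 73.2% of named genes, a CHG loss for 9, beside 43.7%, and a CG loss for 3, beside 13.4%. The same 3 had losses in all 3 contexts, beside 8.25% of named genes. A promoter or body gain was found at 1 gene in CG (95.8% in nrpd1 and 74.9% in wild type) and 1 in CHG (64.0% in nrpd1 and 40.0% in wild type), beside 4.82% of named genes with such a CG gain and 3.14% with a CHG gain. Their 31 CHH losses in promoters and bodies had a median of -16.4 points and 30.0% of the wild-type level left.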

How the data were processed

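Genomic DNA of embryos was treated with bisulfite, per the labels' protocols, which leaves methylated cytosine as cytosine. Incomplete conversion would raise apparent methylation, mostly in CHH. Trim Galore 0.6.7 and Bismark 0.24.0 are named in the submitters' processing notes; no source used here gives the region caller, its thresholds, the conversion rate or the depth. Per the file headers, the authors deposited 1 mean methylation fraction per genotype and region, printed here as a percent, and a signed difference and region statistic, both treated as scores. Coordinates are SL4.0, from the sequence names, as deposited. Regions were matched to the 10 genes by identifier before the dot, losses and gains were split by the sign of the difference, and overlaps needed at least 1 bp. Percentiles rank a region within its context, direction and class (promoter or body, distal, downstream) and give ties their mid-rank. Python 3.11.15 with pandas 2.3.3 was used, and interval counting was tested on simulated data. All members were named by rule. Members, lists and alternatives were chosen with earlier results of these data known. The alternatives were a minimum of 20 points, of 10 cytosines or of the region statistic, other definitions of near, of overlap and of the summed loss, and width weighting.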

Additional observations from a re-analysis of the deposited data

How the results depend on the processing

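The listed regions are means over libraries with no depth or spread, so no replicate could be left out and the smallest changes cannot be told from library variation. No paired analysis was possible because the tables give 1 mean per genotype and no value per replicate. No median difference changed sign with width weighting, but counts depended on the minimum size. With at least 20 points, 6 CHH losses, 0 CHH gains and 2 CHG gains were left, and 2 genes had a CHH loss in the promoter or body, beside 30.8% of named genes. With the larger 50% of the region statistic, 16 CHH losses, 1 CHH gain and 3 CHG losses were left, and 4 genes had a nearby CHH loss (49.9% of named genes) and 1 a nearby CHG loss (26.1%). With at least 10 cytosines, 2 CG losses, 4 CHG losses and 1 CHH gain were left, and 1 gene had a nearby CHG loss (28.9%). Within 1 kb of the start or inside the gene, 2 genes had a CHG loss (35.7%), and with distal regions included 7 had a CHG loss (67.3%) and 3 a CG loss (25.2%). These counts are of the 9 named genes, with shares of all named genes in brackets. Requiring 50% of the CHH region left 2 CHH losses on CHG losses and 0 on CG losses, and allowing 200 bp gave 3 on CG losses. The median difference of the 15 CHG regions was -26.5 points, while their mean weighted by width, a different statistic, was -1.57. These regions include the 5 distal CHG gains of PHYA, which are 61 to 838 bp wide. Over the 10 CHG losses alone, the median was -27.6 points and the mean weighted by width -27.3. Ranked by summed points of nearby CHH loss, 4 of the 7 members were above the median gene, and 3 were by points times width or by the largest single difference. Flanks of 1 and 3 kb, chosen after seeing the data, left 7 genes with upstream coverage.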

Other observations

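Among the 7 genes with a CHH loss in the promoter or body, the summed loss ranged from 12.0 points in CRY1b, at percentile 9.11 of the 20098 genes with such a loss, to 42.8 points in HY5, at percentile 88.3. The same gene was at percentile 41.2 when points were multiplied by width, with widths of 634, 228 and 52 bp in its 3 regions. CRY1a was at percentile 37.5 by summed points and at 69.0 with width.

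Exon numbers in the authors' annotation follow the coordinates rather than the direction of transcription. Of 714 regions annotated to exon 1 of a minus-strand gene with at least 3 exons, 701 (98.2%) lay nearer the end of the gene, as the PHYB1 region does. On the plus strand 170 of 173 lay nearer the start.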
